A study of Rattus norvegicus with 6 samples.

Results

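Genes for potassium channel subunits, whose names start with Kcn, were examined in the heart primordium of rat embryos around the first heartbeat. They were taken as every probe for a transcript, controls left out, whose gene name on the array starts with these letters, which gave 92 of 26269 gene names and 129 of 30367 probes. RNA of the heart primordium on embryonic day 10 was hybridized to 1-color rat arrays in 3 samples of the pre-heartbeat group, with a flat center of the primordium, and in 3 samples of the post-heartbeat group, with a raised center. All were embryos of the strain spelled Wister rat in the labels, which name no treatment, and the groups differed in the stage of the heart, the post-heartbeat group having slightly more somites. The dissection did not separate the first from the second heart field, and the number of primordia behind an RNA sample is not given in the sources used here. The series text calls the 3 samples of a group biological replicates. The arrays lay on 2 slides. Pre-heartbeat replicate 1 shared slide 1 with post-heartbeat replicates 1 and 2, and the remaining arrays were on slide 2.

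Potassium channels let potassium ions leave the cell and so set the resting potential and end the action potential. Voltage-gated (Kv) subunits open on depolarization, inward rectifiers of the Kcnj group hold the resting potential, two-pore-domain (K2P) channels of the Kcnk group carry background current, and calcium-activated channels link the current to intracellular calcium. Auxiliary subunits carry no current alone and alter the gating or number of channels. In the adult heart the inward rectifier keeps working myocytes from firing by themselves, and the delayed rectifiers repolarize them. Which of these genes had a signal in the primordium, and which differed between the groups, are the questions addressed here.

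Probe sequences are shown for 4 genes that stand for different outcomes, namely a Kv pore subunit and an auxiliary subunit with more signal in the post-heartbeat group, and inward rectifiers with and without a signal above background. Each is given 5′ to 3′ on the transcript strand with its position on the rn4 genome as the array files give it, and capitals mark the codons of the glycine-tyrosine-glycine signature of the selectivity filter, the part of the pore that recognizes potassium.
Kcna5 (chr4:162896330-162896389, minus strand): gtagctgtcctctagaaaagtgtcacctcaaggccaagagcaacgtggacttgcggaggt
Kcne1 (chr11:32344803-32344862, minus strand): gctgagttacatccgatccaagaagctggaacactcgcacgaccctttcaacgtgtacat
Kcnj5 (chr8:32083323-32083382, minus strand): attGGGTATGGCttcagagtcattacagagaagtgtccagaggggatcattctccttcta
Kcnj2 (chr10:100576110-100576169, plus strand): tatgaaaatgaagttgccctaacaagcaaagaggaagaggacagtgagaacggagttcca
The codons were searched on the probe strand in any frame as GGNTATGGN or GGNTACGGN. They were found in the Kcnj5 probe shown, at bases 4 to 12, and in no other of the 129 Kcn probes (0.775%), against 0.422% of all 30367 probes.

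The signal was the processed intensity of a spot, from which the scanner software had subtracted the background. Levels below are log2 intensities less the 75th percentile of the array, so that a negative value is a signal under that percentile. Levels of different probes cannot be compared, because probes differ in their binding. A probe was counted as well above background on an array when the software had set this mark on most of its spots. By this mark, 36 of the 129 Kcn probes (27.9%) were well above background on all 6 arrays, against 58.6% of all probes, and 77 (59.7%) on 0 arrays, against 31.1% of all probes. Another 16 were above it on some of the arrays. Between 39 and 50 Kcn probes were above it on a pre-heartbeat array and between 42 and 44 on a post-heartbeat array.

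Counted by genes and by the best of their probes, 31 of the 92 genes were well above background on all 6 arrays, 13 on 1 to 5 and 48 on 0. The K2P genes were above it on all 6 arrays in 7 of 13 genes (Kcnk1, Kcnk2, Kcnk3, Kcnk5, Kcnk6, Kcnk12 and Kcnk16) and on 0 arrays in the other 6. The pore-forming Kv genes divided into 11 of 30 on all arrays, 6 on some and 13 on 0. Among the inward rectifiers, Kcnj5, Kcnj9 and Kcnj14 were above background on all arrays, and 11 of 15 genes were above it on 0 arrays. The Kv modifiers, silent subunits that alter other Kv channels, had 3 of 10 genes on all arrays (Kcng1, Kcng2 and Kcnv2). The calcium- and sodium-activated channels had 3 of 7 (Kcnma1, Kcnn1 and Kcnn3), and the auxiliary subunits 4 of 17 (Kcne3, Kcnmb1, Kcnmb2 and Kcnmb4). No gene was above background on all 3 arrays of a group and on 0 of the other. The 13 genes above background on only some arrays were Kcna1, Kcnd3, Kcnh1, Kcnh4, Kcnh6 and Kcnh8 of the pore-forming Kv group, Kcns3 of the modifiers, Kcnj8 of the inward rectifiers, and the auxiliary Kcnab1, Kcne1, Kcne2, Kcne4 and Kcnip3. Kcnh6 and Kcnip3 were above it on 2 arrays of the pre-heartbeat group and on 0 of the other.

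The genes above background on 0 arrays included some best known from neurons or epithelia. The pore-forming Kv genes above it on 0 arrays included Kcna2, Kcna3, Kcna4, Kcna10, Kcnb2, Kcnc1, Kcnc2, Kcnd2, Kcnh5, Kcnh7 and Kcnq3, and among the modifiers Kcnf1, Kcng3, Kcng4, Kcns1, Kcns2 and Kcnv1. The inward rectifiers without such a signal were Kcnj1, Kcnj2, Kcnj3, Kcnj4, Kcnj6, Kcnj10, Kcnj11, Kcnj12, Kcnj13, Kcnj15 and Kcnj16, and the K2P genes Kcnk4, Kcnk9, Kcnk10, Kcnk13, Kcnk15 and Kcnk18. Among the other subfamilies they were Kcnn2, Kcnn4, Kcnt1 and Kcnt2, and the auxiliary Kcnab2, Kcnab3, Kcne1l, Kcnip1, Kcnip2, Kcnip4, Kcnmb3 and Kcnrg. A probe that is not well above background has a bound and not a level, and a weak transcript is not excluded by it.

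**Figure D1:**
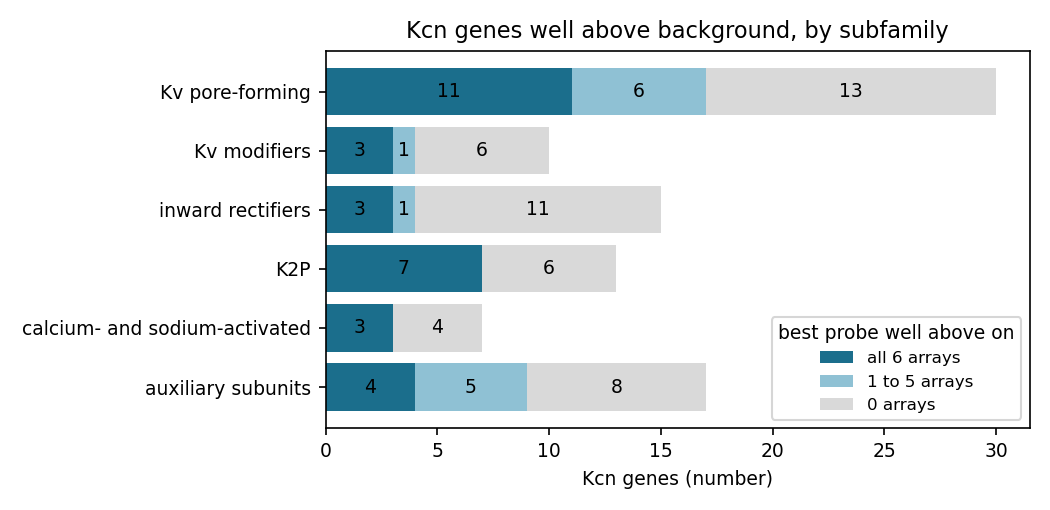
Kcn genes by subfamily, as stacked bars of the number of genes whose best probe was well above background on all 6 arrays, on 1 to 5 arrays or on 0 arrays. The K2P genes had 7 of 13 on all arrays and none on only some, and the inward rectifiers had 11 of 15 on 0 arrays.

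Of the 129 Kcn probes, 40 had a signal well above background throughout at least 1 group, on its 3 arrays, and were compared. They stood for 35 genes, 5 of which had 2 compared probes. By limma with Benjamini-Hochberg adjustment over 18784 probes, 0 Kcn probes passed 0.05, the smallest adjusted p being 0.199. Of all compared probes, 0.149% passed as higher and 0.0213% as lower. At an unadjusted limma p under 0.05, 8 Kcn probes were higher in the post-heartbeat group (3.86% of all probes were) and 1 was lower (2.98% of all). Kcne1, among the 8, and Kcnab1, the lower one, were compared only through the group in which they were higher. A filter on all 6 arrays left 7 Kcn probes at this threshold. In the selection of the study's methods, a change of at least 1.5 fold with an unadjusted p under 0.05, 4 Kcn probes were higher (1.88% of all) and 0 lower (1.1% of all). The 4 were Kcna5, Kcng2, Kcnmb1 and Kcne1. With a filter on all 6 arrays, which Kcne1 did not meet, there were 3. The groups did not overlap for 6 higher Kcn probes, Kcne1 among them (5.37% of all). Nor did they for 4 lower ones, Kcnab1 and Kcns3 among them (6.12% of all). An exact permutation test of 3 against 3 arrays cannot give less than 0.1, the value it gave for each of these 10.

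The slide was a second source of spread. It differed at an adjusted limma p under 0.05 for 11 of the 40 Kcn probes, against 17.1% of all probes. When the model held the slide as a block, 3 Kcn probes passed an adjusted p of 0.05 as higher in the post-heartbeat group (1.21% of all probes) and 0 as lower (0.474% of all). These were Kcna5, Kcng2 and Kcnmb1. At an unadjusted p under 0.05 in the same model, 11 Kcn probes were higher, Kcne1 among them (5.45% of all). There were 4 lower, Kcnab1 and Kcns3 among them (4.15% of all). On both slides, 21 of the 40 Kcn probes were higher in the post-heartbeat group (24.6% of all) and 9 were lower (25.2% of all). The calls past the adjusted threshold depended on few arrays. With each of the 6 arrays left out in turn, Kcna5 passed 0 times and Kcng2 and Kcnmb1 3 times each. Without pre-heartbeat replicate 1 or post-heartbeat replicate 3, 0 Kcn probes passed, and without post-heartbeat replicate 1 Kcnmb1 alone did. With quantile normalization in place of the percentile shift there were 0.

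**Figure D2:**
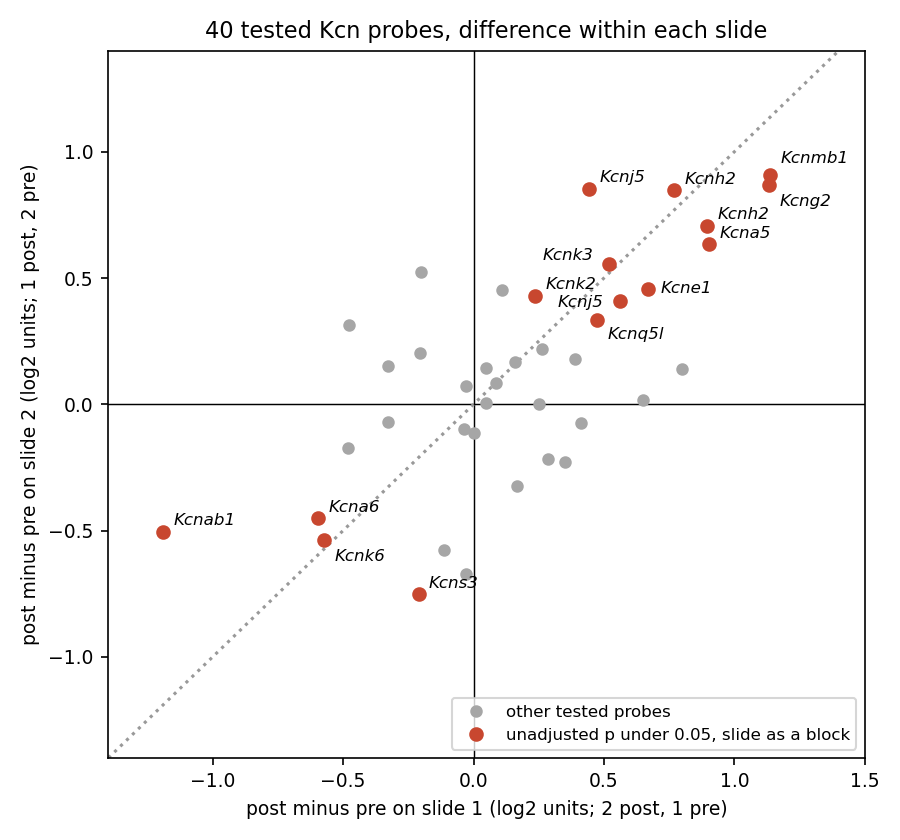
Difference between the groups within slide 1 (x) and within slide 2 (y) for the 40 compared Kcn probes, in log2 units, with probes at an unadjusted p under 0.05 when blocking on the slide in red and the dotted line where both differences are equal. All of the red probes lie on the same side of 0 on both slides, with Kcng2 and Kcnmb1 at the upper right and Kcnab1 at the left.

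Over the 35 genes, each by its brightest compared probe, the median difference was 0.18 on the log2 scale, against -0.03 over all compared probes. It was 0.10, against -0.02, after blocking on the slide. In the post-heartbeat group 27 genes had a higher mean (77.1%, with 44.6% of all probes) and 8 a lower mean. The filter kept genes with a signal on every array of a group. With no filter on dim probes the median difference of the Kcn genes was -0.03.

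**Figure D3:**
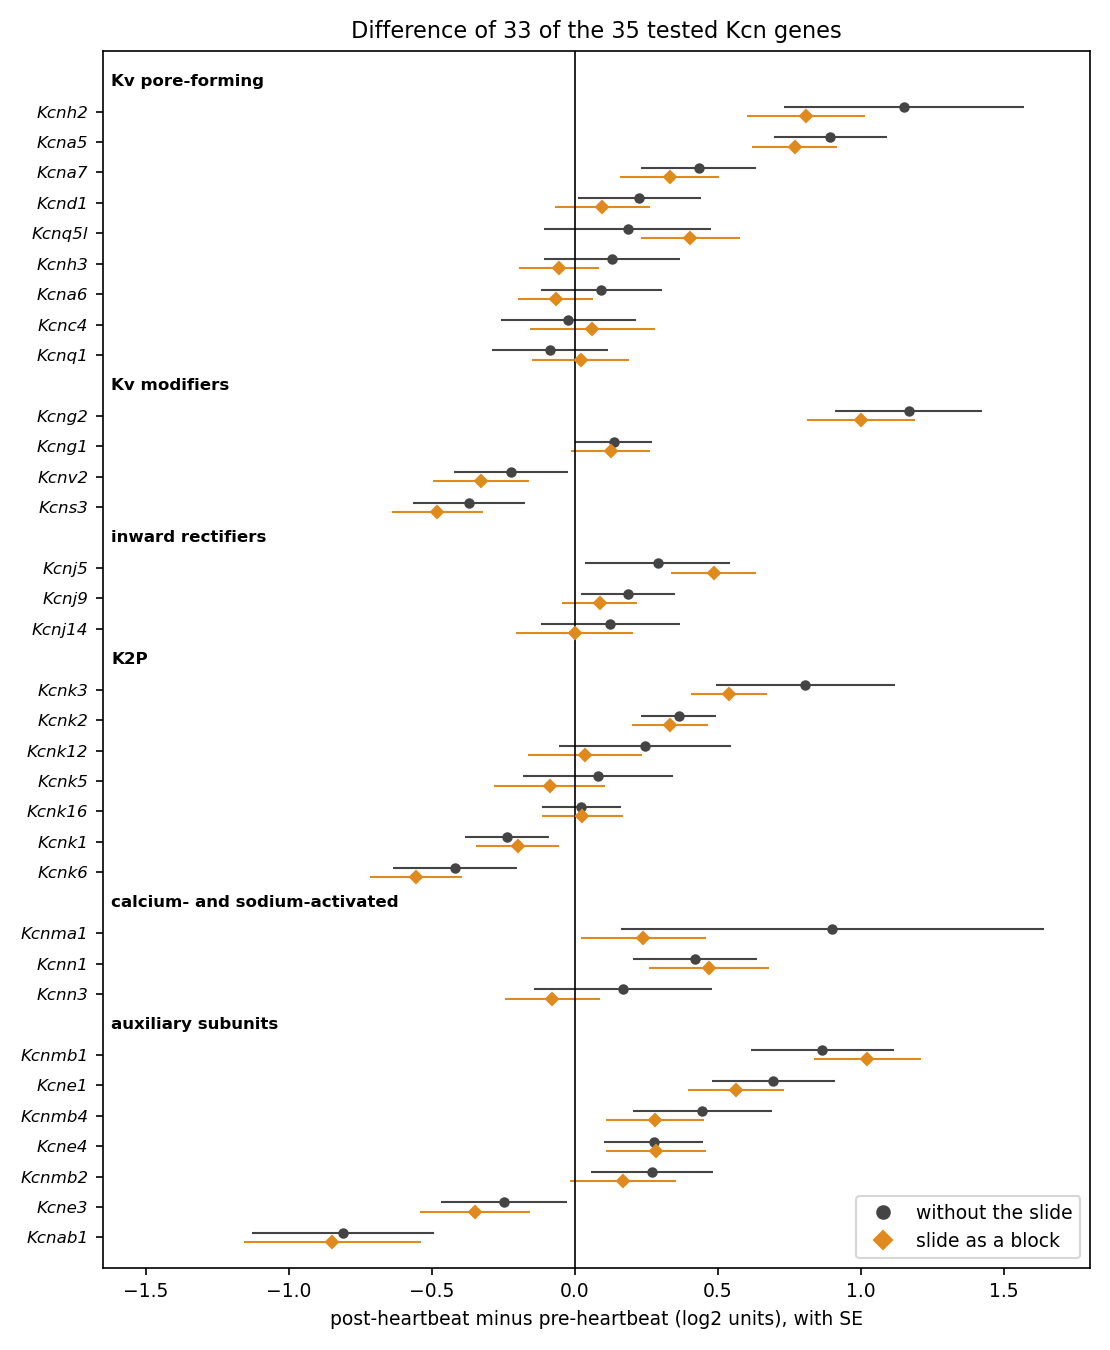
Post-heartbeat minus pre-heartbeat difference of 33 of the 35 compared Kcn genes in log2 units, by subfamily, as the estimate and its SE from limma without the slide (gray circles) and with the slide as a block (orange diamonds). With the slide as a block the 4 estimates farthest to the right are Kcnmb1, Kcng2, Kcnh2 and Kcna5, without it Kcng2, Kcnh2, Kcnma1 and Kcna5. Kcnab1 lies farthest to the left, and Kcnma1 has the widest error without the slide.

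Kcna5 encodes the pore of the ultrarapid delayed rectifier (Kv1.5), a current known from atrial myocytes. Its probe, shown above, had levels of -3.23, -3.49 and -3.44 in pre-heartbeat replicates 1, 2 and 3 and of -2.18, -2.47 and -2.83 in post-heartbeat replicates 1, 2 and 3. Every post-heartbeat array was above every pre-heartbeat array. The mean went from -3.38 ± 0.14 to -2.49 ± 0.33 (SD, n = 3 each). The difference was 0.89 ± 0.20 (SE) on the log2 scale, or 1.86 fold, with a limma adjusted p of 0.199. Blocking on the slide gave 0.77 ± 0.15, with an adjusted p of 0.0465, and the difference was 0.90 within slide 1 and 0.63 within slide 2. This call did not hold with any array left out (adjusted p from 0.0514 to 0.483), nor with normexp background correction (0.0690) or quantile normalization (0.0684). In these bulk samples, a change in the share of a cell type and a change in RNA per cell cannot be told apart. Of the cytoplasmic β-subunits that bind Kv1 channels, Kcnab1 had levels of -4.52, -5.04 and -4.92 before and -5.11, -6.31 and -5.48 after heartbeat initiation, in replicate order. It was lower on every post-heartbeat array, by 0.81 ± 0.32 on the log2 scale, with a limma adjusted p of 0.664. With the normexp correction described below, the difference was -0.32. The probe was well above background on 3 pre-heartbeat arrays and only 2 post-heartbeat arrays, and its level on the other is a bound. It was thus compared only through the group in which it was higher. The other Kcnab1 probe was above background on 0 arrays. Kcnab2 was well above background on 0 arrays.

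Among the silent Kv modifiers, Kcng2 (Kv6.2), which forms channels only together with other Kv subunits, had levels of -1.50, -2.15 and -1.58 in the pre-heartbeat group and of -0.24, -0.49 and -0.998 in the post-heartbeat group, with no overlap. The means were -1.74 ± 0.35 and -0.57 ± 0.38 (SD, n = 3 each), and the difference of 1.17 ± 0.26 on the log2 scale, or 2.24 fold, was the largest of the 35 genes without the slide in the model, with a limma adjusted p of 0.204. Blocking on the slide gave 1.0 ± 0.19 (adjusted p = 0.0425), and the difference was 1.13 within slide 1 and 0.87 within slide 2. Kcns3, another modifier, was lower on every post-heartbeat array, at -5.39, -5.48 and -5.42 before and -5.56, -5.64 and -6.20 after. It was near the limit of detection, well above background on 3 pre-heartbeat and 2 post-heartbeat arrays. It too was compared only through the group in which it was higher. Its difference of -0.37 ± 0.20 became -0.48 ± 0.16 with the slide as a block, with a limma adjusted p of 0.285. It was -0.16 with normexp correction and -0.17 without post-heartbeat replicate 3. The other two modifiers compared, Kcng1 and Kcnv2, differed by 0.14 ± 0.14 and -0.22 ± 0.20, each close to its SE.

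**Figure D4:**
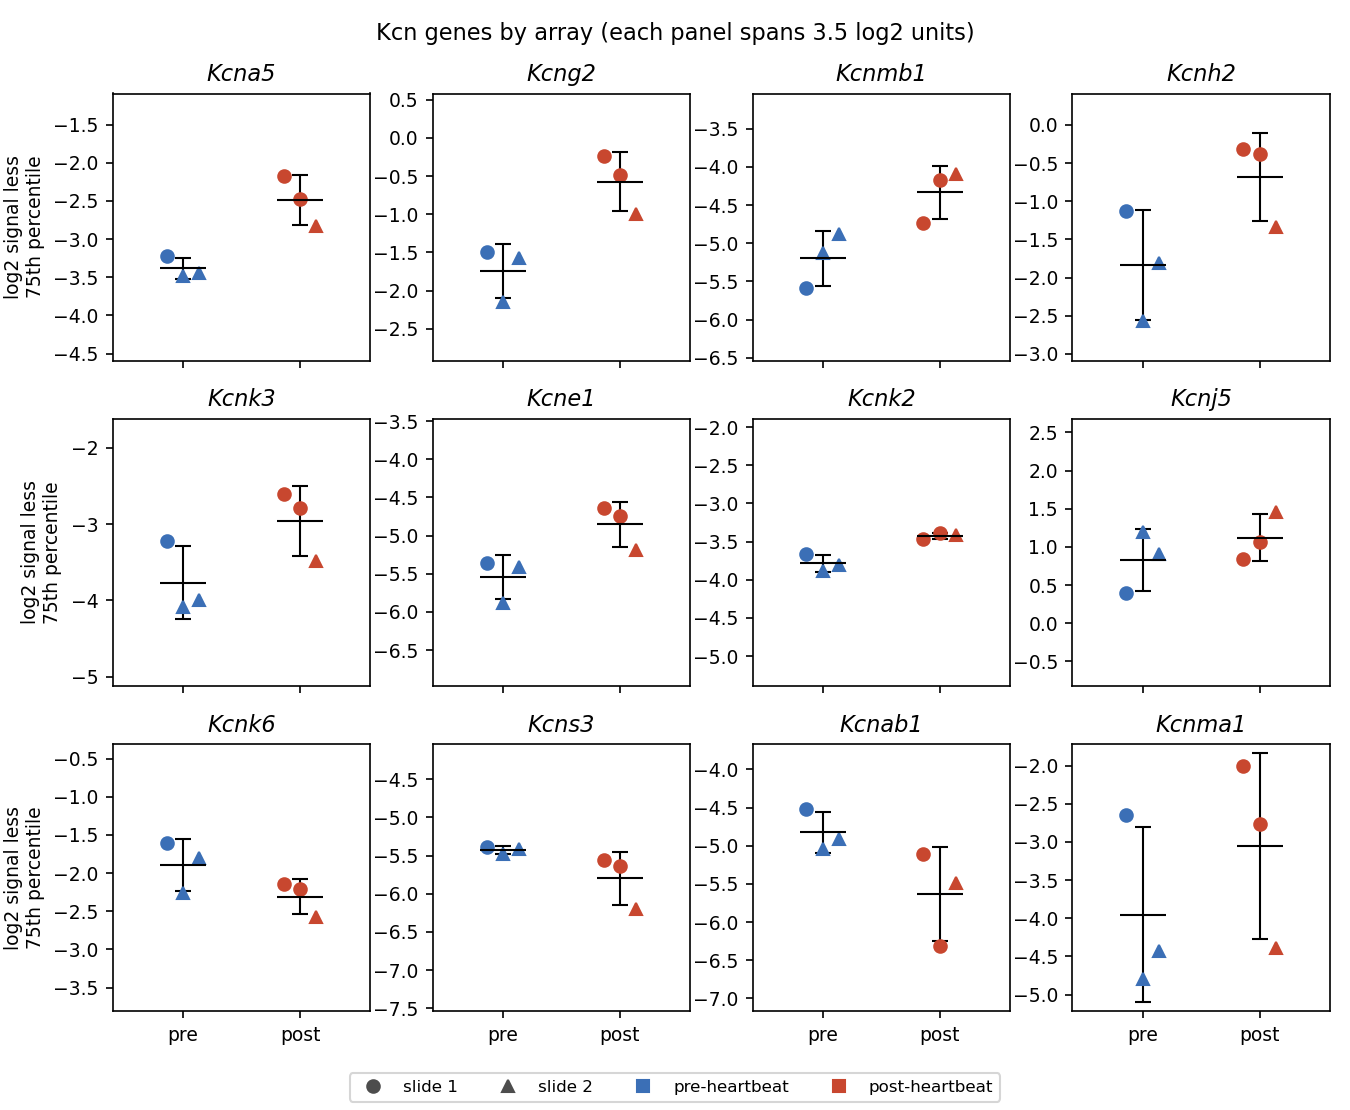
Level of 12 Kcn genes on each array (log2 intensity less the 75th percentile of the array), with pre-heartbeat arrays in blue, post-heartbeat arrays in red, slide 1 as circles, slide 2 as triangles, and the mean and SD of each group as black bars. Kcna5, Kcng2, Kcnmb1, Kcne1 and Kcnk2 are higher on every post-heartbeat array, whereas the levels of Kcnma1 separate the slides.

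Kcnh2 encodes the pore of the rapid delayed rectifier (ERG1), which repolarizes ventricular and pacemaker cells. It had 2 probes, whose starts lie 1736 bases apart on chromosome 4. The brighter probe had levels of -1.12, -2.57 and -1.81 in the pre-heartbeat group and of -0.32, -0.38 and -1.34 in the post-heartbeat group, and these overlapped, as post-heartbeat replicate 3 lay below pre-heartbeat replicate 1. The other probe went from -3.54, -4.61 and -3.40 to -2.50, -2.78 and -3.30, without overlap. The differences were 1.15 ± 0.42 and 0.99 ± 0.36 on the log2 scale, with limma adjusted p of 0.594 and 0.589. Blocking on the slide gave 0.81 ± 0.21 and 0.80 ± 0.30 (adjusted p = 0.127 and 0.378). Both probes were higher on both slides, by 0.77 and 0.85 for the brighter probe within slides 1 and 2. Kcne2, an auxiliary subunit reported to join this channel, was well above background on 2 arrays of each group and was not compared.

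The slow delayed rectifier is formed by Kcnq1 (Kv7.1) with the auxiliary subunit Kcne1 (minK). The Kcne1 probe shown above had levels of -5.36, -5.88 and -5.40 before and of -4.63, -4.74 and -5.18 after heartbeat initiation. The groups did not overlap, and the probe was well above background on 2 pre-heartbeat and 3 post-heartbeat arrays, so that it was compared only through the group in which it was higher. The difference was 0.69 ± 0.22, or 1.62 fold (limma adjusted p = 0.427), and 0.56 ± 0.17 with the slide as a block (adjusted p = 0.209). With a model-based background correction (normexp) that adds an offset to every signal, it was 0.16. The brighter probe of Kcnq1 went from -3.20 ± 0.31 to -3.29 ± 0.22 (SD, n = 3 each) and the dimmer from -3.96 ± 0.37 to -3.58 ± 0.36, so that their differences, -0.09 ± 0.20 and 0.37 ± 0.26, had opposite signs. Both were above 0, at 0.02 and 0.16, after blocking on the slide.

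Several genes of currents known from the mature ventricle had little or no signal. Kcnj2, Kcnj12 and Kcnj4, pore subunits of the inward rectifier, were well above background on 0 of the 6 arrays. Kcnj14, another strong inward rectifier, was above it on all 6. Kcnd2, Kcna4 and the auxiliary subunit Kcnip2 of the transient outward current, the current of early repolarization, were above it on 0 arrays. Kcnd3, another of its pore subunits, had 4 probes, 3 of them above background on 0 arrays and the other on 2 arrays of each group. For the ATP-sensitive channel, which couples the membrane potential to energy state, the pore subunit Kcnj11 was above background on 0 arrays and Kcnj8 on 1 pre-heartbeat array. Abcc8, the receptor subunit that pairs with Kcnj11, was above it on 0 arrays and Abcc9 on 1 post-heartbeat array. The precision here is that of detection on 6 arrays, and no difference between the groups was computed for these genes except Kcnj14.

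The acetylcholine-activated current, by which the vagus slows the heartbeat, is carried by Kcnj3 with Kcnj5 (GIRK1 and GIRK4). Kcnj3 was well above background on 0 arrays with either of its probes. Kcnj5 was above it on all 6 arrays with both of its probes, whose starts lie 148938 bases apart on chromosome 8 in the array's positions. Whether the brighter probe, which stands for the gene in the counts by gene, lies in the Kcnj5 transcript was not checked. The brighter Kcnj5 probe had levels of 0.39, 1.19 and 0.91 before and of 0.85, 1.06 and 1.46 after heartbeat initiation, and the groups overlapped. The probe with the filter codons shown above had -4.53, -3.92 and -4.10 before and -3.95, -4.22 and -3.15 after. On both probes the slide 1 arrays were low within their group. The differences of 0.29 ± 0.25 and 0.41 ± 0.30 became 0.49 ± 0.15 and 0.65 ± 0.16 with the slide as a block (limma adjusted p = 0.231 and 0.115). Without the slide in the model, the difference of the brighter probe was 0.07 without pre-heartbeat replicate 1 and 0.12 without post-heartbeat replicate 3. Within slides 1 and 2 they were 0.56 and 0.41 for the brighter probe and 0.44 and 0.85 for the other. Kcnj9 and Kcnj14, an inward rectifier of the same G-protein-gated group and a strong rectifier, differed by 0.18 ± 0.16 and 0.12 ± 0.24.

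Among the K2P channels, Kcnk3 (TASK-1) carries an acid-sensitive background current and Kcnk2 (TREK-1) a current that responds to membrane stretch. Kcnk3 had levels of -3.22, -4.09 and -3.99 before and of -2.61, -2.79 and -3.49 after, with post-heartbeat replicate 3 below pre-heartbeat replicate 1. Its difference was 0.81 ± 0.31 (limma adjusted p = 0.662), and 0.54 ± 0.13 with the slide as a block (adjusted p = 0.117), with 0.52 and 0.56 within the slides. Kcnk2 went from -3.66, -3.89 and -3.81 to -3.47, -3.38 and -3.42 without overlap, a difference of 0.36 ± 0.13 or 1.29 fold (adjusted p = 0.590). The other Kcnk2 probes were well above background on 0 arrays. Kcnk6 (TWIK-2) pointed the other way, from -1.60, -2.27 and -1.80 to -2.15, -2.21 and -2.57. Its difference was -0.42 ± 0.22, and -0.56 ± 0.16 with the slide as a block (adjusted p = 0.192), and it was lower by a like amount on both slides, at -0.57 and -0.54. Kcnk1 (TWIK-1) was lower on every post-heartbeat array, at 2.20, 2.14 and 2.22 before and 1.75, 1.99 and 2.11 after, with a difference of -0.24 ± 0.15 (adjusted p = 0.865). With normexp correction the differences of Kcnk3 and Kcnk2 were smaller, at 0.46 and 0.19. The differences of Kcnk5, Kcnk12 and Kcnk16 lay between 0.02 and 0.25.

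The large-conductance calcium-activated channel is formed by Kcnma1 with β-subunits, of which Kcnmb1 is known from smooth muscle, where it raises the sensitivity to calcium. Kcnmb1 had levels of -5.59, -5.13 and -4.87 in the pre-heartbeat group and of -4.73, -4.17 and -4.10 in the post-heartbeat group, with no overlap. The means were -5.20 ± 0.36 and -4.33 ± 0.35 (SD, n = 3 each) and the difference 0.87 ± 0.25, or 1.82 fold (limma adjusted p = 0.365). Blocking on the slide gave 1.02 ± 0.19, or 2.03 fold (adjusted p = 0.0382), with 1.14 within slide 1 and 0.91 within slide 2. The probe was dim, and with normexp correction the difference was 0.34, or 0.45 (adjusted p = 0.206) when the slide was also a block. The genes listed as smooth muscle markers, Acta2, Tagln, Myh11 and Cnn1, were all higher too, and so were all 8 cardiac muscle markers, as described below. The part of either list in this result was not tested.

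Kcnma1, the pore subunit, followed the slide on the probe compared, its other probes being well above background on 0 arrays. Its levels were -2.65 on slide 1 and -4.79 and -4.43 on slide 2 before heartbeat initiation, and -2.01 and -2.76 on slide 1 and -4.39 on slide 2 after it. The level on slide 2 less that on slide 1 was -1.98 on the log2 scale (adjusted p = 0.00127), and the difference of 0.90 ± 0.74 between the groups became 0.24 ± 0.22 with the slide as a block. The other auxiliary subunits near or above the limit of detection were Kcne3 and Kcne4 of the minK family, with differences of -0.25 ± 0.22 and 0.28 ± 0.17. Kcne4 was well above background on 2 pre-heartbeat and 3 post-heartbeat arrays, so that it was compared only through the group in which it was higher. The β-subunit Kcnmb4 differed by 0.45 ± 0.24, and the probes of Kcnmb2 had opposite signs, at -0.37 ± 0.19 and 0.27 ± 0.21. Of the small-conductance calcium-activated channels, Kcnn2 was above background on 0 arrays. By limma, Kcnn1 differed by 0.42 ± 0.22 and Kcnn3 by 0.17 ± 0.31, or -0.08 with the slide as a block.

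The other pore-forming Kv genes gave smaller differences. Kcna7 had a difference of 0.43 ± 0.20, and Kcnd1, Kcnh3 and Kcnc4 had differences between -0.02 and 0.23. The entry Kcnq5l, for which no RefSeq transcript was matched, had 0.18 ± 0.29, and 0.40 ± 0.17 with the slide as a block (limma adjusted p = 0.511). Kcna6 had 2 probes with opposite signs, -0.27 ± 0.32 and 0.09 ± 0.21. After blocking on the slide both were below 0, at -0.52 and -0.07, the former at an unadjusted limma p of 0.0159 and an adjusted p of 0.287. Over the 5 genes with 2 compared probes, 2 (Kcnh2 and Kcnj5) had probes of the same direction and 3 (Kcna6, Kcnmb2 and Kcnq1) of opposite direction, with Kcnmb2 alone opposite once the slide was a block.

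Genes of potassium channel complexes and of related pacemaker channels that have other names were examined as a list of 20. On the arrays, 10 could be compared. Cav3, the muscle caveolin that scaffolds channels at the membrane, was among them only through the group in which it was higher, since it was well above background on 0 pre-heartbeat and 3 post-heartbeat arrays, at means of -7.11 and -4.85. With the post-heartbeat mean set against the dimmest signal above background on each pre-heartbeat array, it was 2.43-fold higher. A probe can exceed that dimmest signal and still not be well above background, so this value is not a strict bound. No test is given for it. Of the 9 other genes, 6 had a higher mean in the post-heartbeat group, against 44.6% of all compared probes, and 3 a lower mean. Hcn3, among the 3, was well above background on 3 pre-heartbeat and 2 post-heartbeat arrays. It was thus compared only through the group in which it was higher. Dlg1, also among the 3, had a difference of -0.04, and of 0.21 with the slide as a block. By limma, 2 of the 9 were higher at an unadjusted p under 0.05 (3.86% of all probes), and 0 passed the adjusted threshold, also with the slide as a block (1.21% of all). The 2 were Fhl2, a LIM protein reported to bind the slow delayed rectifier, with levels of -0.85, -0.30 and -0.47 before and 0.09, 0.07 and 0.10 after (difference 0.63 ± 0.17), and Hcn4, the pacemaker channel, with -1.33, -1.77 and -1.08 before and -0.61, -0.89 and -0.89 after (difference 0.60 ± 0.21). Neither gene overlapped between the groups, and nor did Nedd4l, which was also higher (5.37% of all probes were higher without overlap). Of the list, 9 were above background on 0 arrays, among them Hcn2, Dpp6 and Dpp10.

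Marker genes were examined to check the tissue, and their lists did not all differ in the same direction between the groups. All 8 cardiac muscle markers (Tnnt2, Tnni1, Myl7, Myl4, Actc1, Myh6, Myh7 and Nkx2-5) were well above background on all 6 arrays and had a higher mean in the post-heartbeat group. Their summed level, in units of the 75th percentile of the array, ranged from 369 to 623 before and from 683 to 821 after heartbeat initiation. At an unadjusted limma p under 0.05, 5 of 8 were higher (3.86% of all probes). At an adjusted p under 0.05, 0 of the 8 passed (0.149% of all as higher). With the slide as a block 3 did (1.21% of all). All 4 smooth muscle markers were higher, with sums from 3.27 to 4.17 before and from 6.63 to 8.41 after. Of these, 0 passed the adjusted limma threshold without the slide in the model (0.149% of all). All 4 passed it with the slide as a block (1.21% of all). The cardiac muscle sum came to 34.9% from Actc1, whose groups overlapped, and the smooth muscle sum to 54.5% from Acta2. The sums of the other lists rest still more on a bright probe. The share of a probe in a sum follows from its binding as well as its transcript. The endothelial sum (17.7 to 18.3, then 12.7 to 14.1) came to 73.8% from Kdr. Without the slide in the model, 5 of 6 members had a lower mean, with a median difference of -0.16. At an unadjusted limma p under 0.05, 1 member, Tie1, was higher (3.86% of all) and 1, Kdr, was lower (2.98% of all). With the slide as a block the median was -0.03. Pecam1, Cdh5 and Tie1 were then above 0, and Kdr, Tek and Egfl7 below it. The endoderm sum (43.4 to 47.2, then 29.1 to 36.8) came to 84.2% from Ttr, with 3 of 4 members lower. The neural ectoderm sum (15.5 to 15.6, then 11.7 to 12.3) went with Otx2, which differed by -1.56, while Sox2 differed by -0.21 and Pax3 by 0.12. The paraxial mesoderm sum (13.2 to 15.6, then 15.9 to 17.2) came to 98.6% from Tcf15, and the blood sum overlapped between the groups (2.07 to 4.01, then 3.18 to 5.72). Sox17, Gata1, Pax6 and Mesp2 were above background on 0 arrays. The part of these shifts in the differences of the Kcn genes was not tested.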

How the data were processed

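The authors labeled RNA of each sample with cyanine 3 by a low-input amplification and hybridized it to an Agilent rat array, 1 array per sample, quantified with Feature Extraction 10.7.3.1. The deposited values used were the processed signal of each spot, an intensity after background subtraction, and, as an alternative, ratios to a baseline that the authors made after a 75th percentile shift. Positions are those of the rn4 array annotation.

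Control and outlier spots were left out, log2 signals were shifted by the 75th percentile of each array, and spots of a probe were averaged. The percentile was between 1143 and 1694, between 39375 and 41327 of 58717 spots per array were well above background, and 0 were saturated. The number of arrays limits the precision. Probes well above background on all 3 arrays of a group were tested with limma 3.58.1 in R 4.3.3 over the whole array, with Benjamini-Hochberg adjustment. The selection of the methods used the Tukey HSD test. Tables were made with Python 3.11.15 and pandas 2.3.3. A gene was represented by its tested probe with the highest mean. Accessions matched RefSeq for 117 of the 129 Kcn probes. Kcne1l was matched to Kcne5.

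The genes named are those with an unadjusted limma p under 0.05 without or with the slide as a block, those in the selection, those of the listed cardiac currents, and examples of each subfamily. Members and lists were chosen with earlier results of these data known. Alternatives were the replicate number or slide as a block, normexp with an offset of 50, quantile normalization, a percentile over detected probes, other filters, the authors' ratios, an intensity trend and leaving out each array. Leaving out arrays, and other settings, with the slide as a block were added after the values had been seen. Tested on simulated data for 18782 probes, the procedure recovered 96% of 200 shifts of 3 on the log2 scale with 9 false calls, and 31% of 200 shifts of 1 with 4 false calls. A few genes counted among the members and lists are not reported here by name.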

Additional observations from a re-analysis of the deposited data

How the results depend on the processing

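The number of Kcn probes past the adjusted limma threshold, 0, became 3 with the slide as a block and stayed at 0 under the other settings. With the slide as a block, the 3 became 0 with quantile normalization and ranged from 0 to 4 when arrays were left out. There were 0 without pre-heartbeat replicate 1 or post-heartbeat replicate 3, where the comparison was left to the arrays of 1 slide. Without post-heartbeat replicate 1 there was 1. The 4 probes of the methods' selection became 2 with normexp, 7 with no filter on dim probes, 1 at a fold threshold of 2 and 8 with the limma p. They ranged from 1 to 4 with arrays left out (2 without pre-heartbeat replicate 1 or post-heartbeat replicate 1, 1 without post-heartbeat replicate 2). The 9 at an unadjusted p became 15 with the slide as a block, 4 with normexp and 14 with no filter, and ranged from 3 to 11 (5 without pre-heartbeat replicate 3, 4 without post-heartbeat replicate 1, 3 without post-heartbeat replicate 2). The median difference ranged from 0.07 to 0.29 with arrays left out and was 0.06 with normexp. Stricter and looser marks for spots left 36 and 40 probes above background on all arrays.

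For the 16 genes tested by name, 224 comparisons with an alternative kept direction and side of the threshold, 3 newly passed it and 10 turned in sign, in 4 genes. Kcna6 was -0.0672 with the slide as a block, -0.0172 with normexp and from -0.0195 to 0.263 with arrays left out. Kcnn3 was -0.0791 with the slide as a block and from -0.0043 to 0.498. Kcnq1 was 0.0204 with the slide as a block and from -0.213 to 0.0880. Kcnq5l ranged from -0.0594 to 0.445. The cause was not tested.

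Whether equal replicate numbers paired the samples cannot be told apart from the slide. The deviations of same-numbered samples correlated at 0.66, -0.29 and 0.51 for numbers 1, 2 and 3. Numbers 1 and 3 shared a slide and number 2 did not. Samples of unequal number on the same slide also correlated, at 0.52 for pre-heartbeat 1 with post-heartbeat 2 and 0.51 for pre-heartbeat 2 with post-heartbeat 3. With the replicate block, the selection held 2 probes, the unadjusted count was 10 and 0 probes passed the adjusted threshold.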
